A study of Mus musculus with 6 samples.

Results

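The *Hox* genes of C2C12 myoblasts and myotubes were taken from the RNA-seq count tables by symbol, as every gene row named *Hoxa*, *Hoxb*, *Hoxc* or *Hoxd* followed by a number, which gave 39 of the 54525 gene rows. C2C12 is an established mouse myoblast line, a clone whose parent line was raised from thigh muscle, so all libraries describe 1 clone. RNA came from 3 cultures of proliferating myoblasts (D0) and from 3 cultures of myotubes after 5 days of differentiation (D5). All cultures were wild type and untreated, the growth medium held fetal bovine serum and the differentiation medium horse serum, and the labels call the cells of both groups mouse muscle myoblasts. The comparison asks which members of the 4 *Hox* clusters were transcribed in these cells and which of them changed between D0 and D5. The labels give no body position for the cells, and none was assigned from these values.

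*Hox* genes encode homeodomain transcription factors that tell cells where along the body axis and the limb they lie. In mammals they stand in 4 clusters, HoxA to HoxD, and the members at the same place in each cluster form a paralog group, numbered 1 to 13 from the anterior to the posterior end. Genes of low number are expressed early and far forward in the embryo, those of high number later and further back, and groups 9 to 13 of HoxA, HoxC and HoxD pattern the limbs. The proteins bind DNA together with TALE homeodomain cofactors (Pbx, Meis and Pknox), and Polycomb and Trithorax group proteins keep the clusters silent or active.

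The D0 libraries held from 36555048 to 40895840 counts on genes and the D5 libraries from 25449759 to 25811300. A gene is called detected in a group when each of its 3 libraries had more than 3 counts. That limit was worth 0.0714 to 0.0801 CPM (counts per 1000000 counts, scaled with TMM factors) in the D0 libraries and 0.119 to 0.122 CPM in the D5 libraries, and it covers counting error only. *Myog*, which starts the differentiation program, rose from 2.76 ± 0.367 to 515 ± 3.25 CPM (SD, n = 3 each), so the libraries matched their labels. Markers of other cells were low at D0: the 6 fibroblast markers summed to 1.15 to 1.50 CPM per library at D0 and to 53.2 to 64.5 CPM at D5. *Thy1* stayed at or near 0. All 4 that were tested were higher, against 42.2% of all genes tested. Of these, *Dpt*, *Pi16* and *Lum* passed the filter on low counts through their D5 libraries alone, so no other call was open to them. The summed level of the 5 endothelial markers was 3.31 to 3.59 CPM at D0 and 1.54 to 1.93 CPM at D5, that of the 5 osteoblast markers 1.25 to 1.69 and 14.3 to 19.2 CPM, and that of the 5 immune markers 3.05 to 3.31 and 2.09 to 3.12 CPM. Single genes carried most of these sums. *Phex* had a mean of 15.2 CPM at D5, while *Ibsp* was at 0. *Cd68* alone among the immune markers had counts at D0, and *Itgam* rose from 0 to 10, 13 and 5 counts. *Kdr* fell from a mean of 2.50 to 0.215 CPM, whereas *Cldn5* rose from 0 to 28, 25 and 26 counts. The 5 adipocyte markers did not exceed 1 count in any library. The part of such cells in the *Hox* values was not tested, and in bulk RNA fewer cells of a type and less RNA per cell cannot be told apart.

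The clusters differed in whether they were transcribed at all. All 11 HoxA genes and all 9 HoxC genes were detected at D0 and at D5. Of the 10 HoxB genes, 6 were detected at D0 and 4 at D5. None of the 9 HoxD genes had a single count in any of the 6 libraries. In total 26 of the 39 genes were detected at D0 and 24 at D5, against 57.9% and 59.5% of all protein-coding rows, and no *Hox* gene was detected at D5 that was not detected at D0. HoxA lies on chromosome 6 of GRCm38 from 52155590 to 52260880 on the minus strand, HoxB on chromosome 11 from 96194316 to 96368256, HoxC on chromosome 15 from 102921103 to 103036852 and HoxD on chromosome 2 from 74668310 to 74765142, the last 3 on the plus strand.

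**Figure D1:**
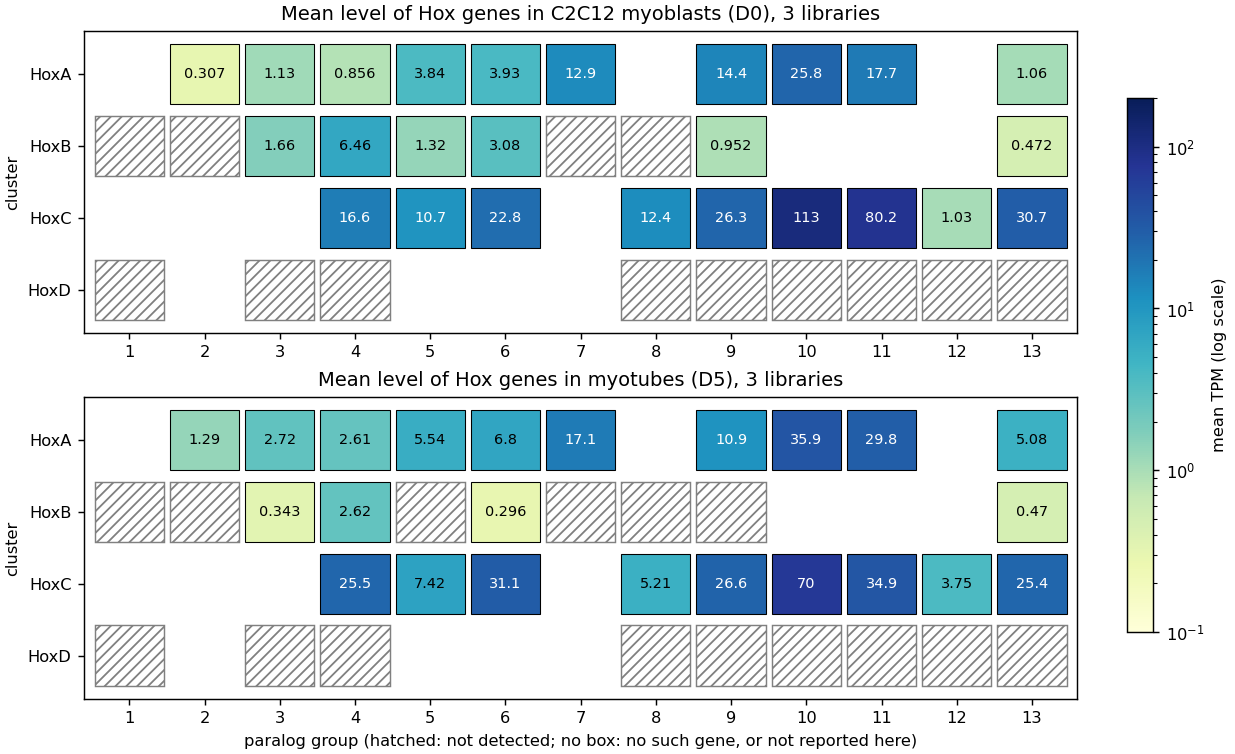
Mean TPM (transcripts per 1000000, from counts per exonic length) of the *Hox* genes at D0 and at D5, n = 3 libraries each, with clusters as rows and paralog groups 1 to 13 as columns. Boxes are coloured on a log scale and hatched where the gene was not detected. Every HoxA and HoxC box is filled at both times, the HoxD row is hatched throughout, and *Hoxc10* is the highest box at both times, with 113 TPM at D0 and 70.0 TPM at D5.

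The start regions of 4 genes are printed because they set detected and undetected paralogs side by side: *Hoxa9* and *Hoxd9* of group 9, and *Hoxa13* and *Hoxd13* of group 13, which act in the outer limb. Each sequence runs from 250 bases before to 50 bases after the gene's start in RefSeq (GRCm38.p6), with the CG dinucleotides in capitals.
Hoxa9, minus strand, chr6:52227321-52227620: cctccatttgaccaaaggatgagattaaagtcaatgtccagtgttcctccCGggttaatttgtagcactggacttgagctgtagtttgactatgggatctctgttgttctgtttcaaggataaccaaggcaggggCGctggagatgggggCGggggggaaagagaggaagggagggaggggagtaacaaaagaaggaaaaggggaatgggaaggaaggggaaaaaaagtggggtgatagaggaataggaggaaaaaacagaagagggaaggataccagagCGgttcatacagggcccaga
Hoxd9, plus strand, chr2:74697513-74697812: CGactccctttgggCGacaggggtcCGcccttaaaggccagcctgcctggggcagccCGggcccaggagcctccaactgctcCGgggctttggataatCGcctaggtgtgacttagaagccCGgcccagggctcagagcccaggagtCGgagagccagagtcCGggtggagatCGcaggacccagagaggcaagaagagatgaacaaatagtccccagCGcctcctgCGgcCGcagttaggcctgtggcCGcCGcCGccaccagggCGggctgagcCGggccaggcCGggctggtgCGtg
Hoxa13, minus strand, chr6:52260831-52261130: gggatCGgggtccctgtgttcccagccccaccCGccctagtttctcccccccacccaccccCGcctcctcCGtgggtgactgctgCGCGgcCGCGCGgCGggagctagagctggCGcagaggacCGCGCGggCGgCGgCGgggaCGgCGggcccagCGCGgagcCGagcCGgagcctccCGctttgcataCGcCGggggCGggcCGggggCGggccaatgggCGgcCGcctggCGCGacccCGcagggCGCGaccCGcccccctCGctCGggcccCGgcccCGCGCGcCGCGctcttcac
Hoxd13, plus strand, chr2:74667975-74668274: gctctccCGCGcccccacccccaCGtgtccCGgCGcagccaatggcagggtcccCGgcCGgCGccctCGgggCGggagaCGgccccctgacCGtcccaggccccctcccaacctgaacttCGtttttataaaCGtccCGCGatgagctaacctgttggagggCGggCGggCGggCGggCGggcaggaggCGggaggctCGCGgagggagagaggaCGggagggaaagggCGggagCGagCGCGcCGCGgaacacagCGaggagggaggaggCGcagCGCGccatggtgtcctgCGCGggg
These windows held 4 CG dinucleotides for *Hoxa9*, 20 for *Hoxd9*, 45 for *Hoxa13* and 37 for *Hoxd13*. Thus *Hoxd9*, with no count in any library, had the richer of the windows printed for group 9. The *Hoxa9* window lies inside the counted gene, which spans 52223100 to 52231089, so it does not cover that gene's outer start. Windows were at hand for 22 *Hox* genes, of which *Hoxa10* and *Hoxd11* had 2 each. The median number of CG dinucleotides was 17.5 over the 10 HoxA windows and 20 over the 10 HoxD windows, against 7 over all 32851 promoter windows of the same length. The E-box CAGCTG, the core bound by MyoD and myogenin, occurred on either strand in 40% of the HoxA windows and in none of the HoxD windows. It was also absent from the 3 HoxB windows and the 1 HoxC window. Over all 24 *Hox* windows its share was 16.7%, against 16.3% of all windows. The matches lay at *Hoxa3*, *Hoxa5*, *Hoxa6* and *Hoxa11*. The TATA box TATAAA was present in 10% of the HoxA, 20% of the HoxD, 16.7% of the *Hox* and 13.6% of all windows. One of its matches lies in the *Hoxd13* window above. The octamer ATTTGCAT was in none of the 24 *Hox* windows and in 1.74% of all windows. These matches describe the letters of the windows.

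HoxD was at 0 as a block. From *Gm22975* to *Hoxd1*, 22 successive annotated rows had no count in any library, a stretch of 141 kb on chromosome 2 from 74624642 to 74765142. This stretch held 11 protein-coding rows, among them the 9 *Hoxd* genes and *Evx2*, a homeobox gene beside *Hoxd13*. Coding genes beyond it were expressed. *Mtx2*, a mitochondrial outer membrane gene next to *Hoxd1*, had 35.9 ± 1.15 CPM in D0 libraries and 44.9 ± 1.95 CPM in D5 libraries (SD, n = 3 each), and *Lnpk*, on the other side of *Evx2*, had 48.6 ± 0.624 and 40.2 ± 2.59 CPM. Across the series 24.2% of the protein-coding rows were at 0 in all 6 libraries. A count of 0 in a single library allows at most 3 counts, or 0.122 CPM in the shallowest library, and 0 in all 6 libraries together sets a lower limit. *Hoxd3* and *Hoxd4* share 62.3% and 52.3% of their exonic bases with *Gm28230* or with each other on the same strand, and how reads in shared exons were treated is not stated in the sources used here. The other 7 *Hoxd* genes share at most 10.8%.

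Among the *Hox* genes that were transcribed, HoxC carried most of the RNA. Per exonic length the 39 genes summed to 412 ± 25.0 TPM at D0 and to 354 ± 12.4 TPM at D5 (SD, n = 3 each). HoxC made up 76.2% ± 0.739 of this sum at D0 and 65.0% ± 0.201 at D5, HoxA 20.4% ± 0.692 and 33.9% ± 0.211, and HoxB 3.42% ± 0.0701 and 1.11% ± 0.101 (SD, n = 3 each). The 3 HoxA sums were 82.8, 82.1 and 86.5 TPM at D0 and 124, 114 and 122 TPM at D5, so the groups did not overlap. HoxC gave 297, 306 and 339 TPM at D0 and 235, 222 and 233 TPM at D5, again without overlap, and in the opposite direction. Groups 9 to 13 made up 75.8% ± 1.08 of the sum at D0 and 68.7% ± 0.477 at D5, whereas groups 1 to 3 gave 1.22% ± 0.0430 and 1.83% ± 0.0863 (SD, n = 3 each). No test was run on these sums.

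**Figure D2:**
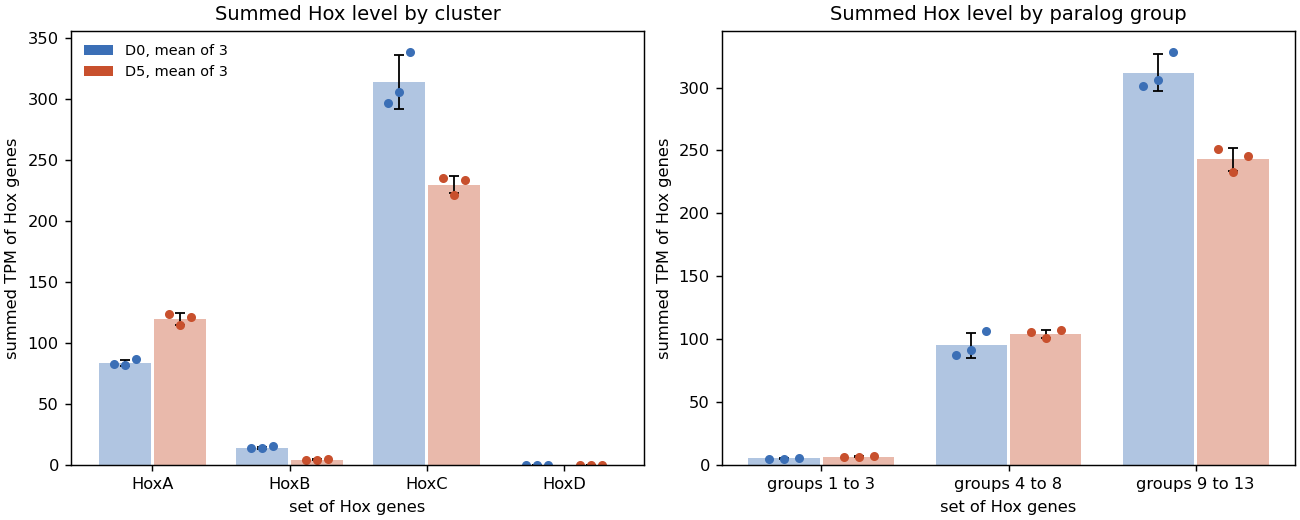
Summed TPM of the *Hox* genes of each cluster (left) and of paralog groups 1 to 3, 4 to 8 and 9 to 13 (right). Bars are means, error bars the SD over 3 libraries and points the single libraries. HoxC stands highest at both times with 314 TPM at D0 and 230 TPM at D5, and HoxA moves from 83.8 to 120 TPM.

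The highest gene was *Hoxc10*, which acts in lumbar motor neurons and the hindlimb. Its level was 113 ± 4.49 TPM at D0 and 70.0 ± 4.10 TPM at D5 (SD, n = 3 each), above every other *Hox* gene in every library. At D0 *Hoxc11* followed with 80.2 ± 5.19 TPM. *Hoxc13*, *Hoxc9*, *Hoxa10* and *Hoxc6* came next, at 30.7, 26.3, 25.8 and 22.8 TPM, and no neighbours among these 4 were separated in every library. At D5 *Hoxa10* had 35.9 ± 1.52 TPM and *Hoxc11* 34.9 ± 2.35 TPM, which overlapped. The lowest detected gene was *Hoxa2* at D0 with 0.307 ± 0.111 TPM and *Hoxb6* at D5 with 0.296 ± 0.0384 TPM.

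All 26 genes detected at D0 passed edgeR's filter on low counts and were tested between D5 and D0 over 16290 genes. Of these, 20 reached the level of the filter, 0.321 CPM, in all libraries of both groups, 3 in all D0 libraries and no D5 library, 2 in all D5 libraries but not in all D0 libraries, and *Hoxb13* in 1 D0 and 2 D5 libraries. At an adjusted p threshold of 0.05 (quasi-likelihood test of edgeR), 13 passed as higher and 10 as lower at D5. Across the series 42.2% of the genes tested were higher and 40.8% lower by the same rule, so that 82.9% were called in either direction. After scaling, every D5 library stood above every D0 library for 13 of the 26 genes and below for 10, against 42.2% and 41.1% of all genes tested. The median log2 fold change was 0.26 over the 26 genes and 0.0022 over all genes tested. The clusters had medians of 0.90 for the 11 HoxA genes, -2.65 for the 6 HoxB genes tested and -0.11 for the 9 HoxC genes. The HoxB median includes *Hoxb5*, *Hoxb6* and *Hoxb9*, which were kept through their D0 libraries alone. Scaling to the ERCC spike-ins, synthetic RNAs added to the samples, moved the median of all genes to -0.58, left 2 higher and 7 lower *Hox* genes past the threshold, and turned *Hoxa7* and *Hoxc9* to values below 0. All 13 higher genes lay above that shifted median and all 10 lower genes below it. Scaling multiplies all genes of a library by a common factor, so this order was nearly fixed beforehand. It is therefore no support for the calls.

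**Figure D3:**
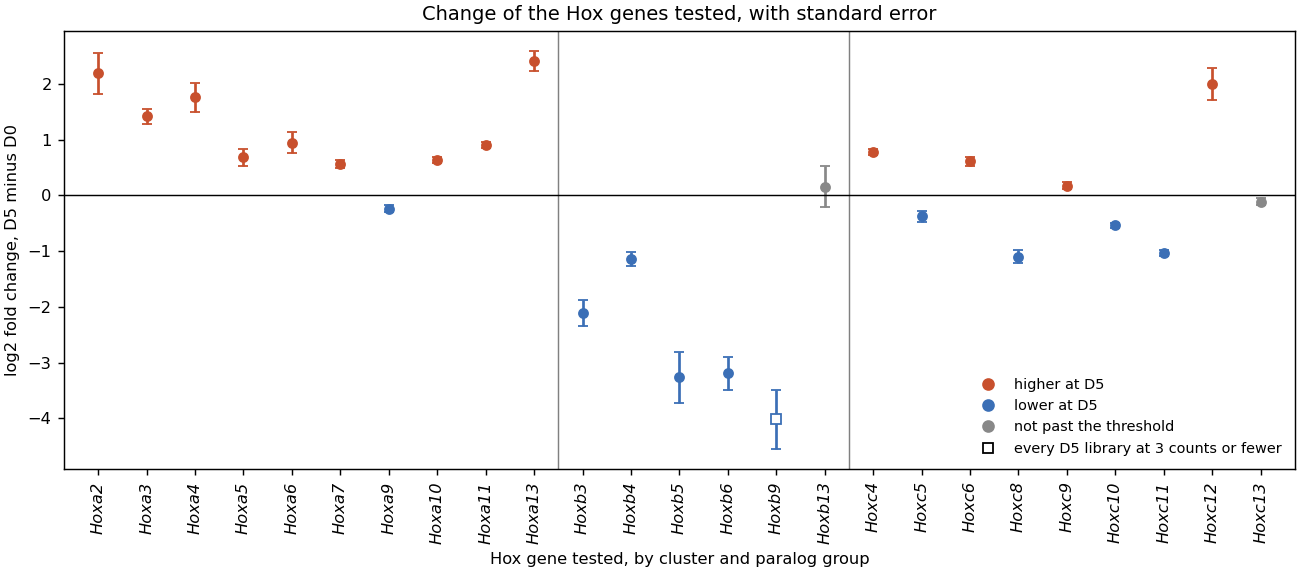
Log2 fold change (D5 minus D0) of 25 *Hox* genes tested, with the standard error of edgeR's fit, ordered by cluster and paralog group and coloured by the call. The open square marks *Hoxb9*, with 3 counts or fewer in every D5 library. Of the 10 HoxA genes shown 9 lie above 0 and past the threshold (*Hoxa7* turns to -0.01 with ERCC scaling), 5 of 6 HoxB genes lie below it, and HoxC is split.

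In HoxA 9 of 11 genes were higher at D5 and 1 was lower; with ERCC scaling *Hoxa2* and *Hoxa13* alone passed as higher and *Hoxa7* had a log2 fold change of -0.01. The largest rise was at the posterior end. *Hoxa13*, which shapes hand and foot, had 24, 27 and 40 counts at D0 and 110, 90 and 102 at D5, and every D5 library stood above every D0 library after scaling. Its log2 fold change was 2.41 (SE 0.18, edgeR adjusted p = 2.8e-13), a 5.33-fold rise of the mean CPM. *Hoxa11*, required for the forearm and the uterus, had 425, 491 and 488 counts at D0 and 553, 515 and 569 at D5, and rose by 0.90 (SE 0.062, edgeR adjusted p = 2.6e-14). *Hoxa10*, a gene of the lumbar spine and uterus, had 942, 1003 and 972 counts at D0 and 970, 909 and 945 at D5. With the smaller D5 libraries this was a rise of 0.63 (SE 0.048, edgeR adjusted p = 2.9e-13) without overlap between the groups.

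*Hoxa9*, known for its part in blood progenitors and leukaemia, was the exception in HoxA. Counts were 904, 970 and 898 at D0 and 526, 481 and 458 at D5 (log2 fold change -0.24 ± 0.058 SE, edgeR adjusted p = 4.2e-04), and after scaling no D5 library reached a D0 library. The mean was 84.7% of the D0 level. With ERCC scaling *Hoxa9* had a log2 fold change of -0.79 and was not past the threshold (edgeR adjusted p = 0.24). *Hoxa7*, of the thoracic region, had 404, 423 and 458 counts at D0 and 382, 396 and 405 at D5 and was higher by 0.56 (SE 0.069, edgeR adjusted p = 1.2e-08).

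The anterior HoxA genes rose from low levels. *Hoxa2*, which sets the identity of the pharyngeal arches, had 6, 9 and 4 counts at D0 and 14, 19 and 22 at D5. It passed the filter on low counts through its D5 libraries alone, so a lower call was not open to it. *Hoxa3*, needed for thymus and parathyroid, had 61, 79 and 96 counts at D0 and 135, 119 and 139 at D5 (log2 fold change 1.42 ± 0.14 SE, edgeR adjusted p = 1.7e-10). *Hoxa4*, of the cervical region, had 19, 15 and 13 counts at D0 and 30, 34 and 36 at D5 (log2 fold change 1.76 ± 0.26 SE, edgeR adjusted p = 3.9e-07). All 3 were without overlap between the groups, and *Hoxa2* had a log2 fold change of 2.19 in the same test from a mean of at most 20 counts. *Hoxa5*, which acts in the lung and the cervical skeleton, had 74, 80 and 95 counts at D0 and 92, 70 and 88 at D5 (log2 fold change 0.69 ± 0.15 SE, edgeR adjusted p = 1.4e-04). *Hoxa6*, its neighbour, had 35, 43 and 41 counts at D0 and 47, 47 and 49 at D5 (log2 fold change 0.95 ± 0.19 SE, edgeR adjusted p = 4.1e-05). The fibroblast markers moved with this group, and their part in its change was not tested. *Hoxa3* shares 25.4%, *Hoxa4* 16.0%, *Hoxa7* 20.4% and *Hoxa11* 35.0% of its exonic bases with genes on the other strand. Without a stated strand setting those reads cannot be told apart. *Hoxa2* shares 15.0% with *Gm28308* on the same strand.

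**Figure D4:**
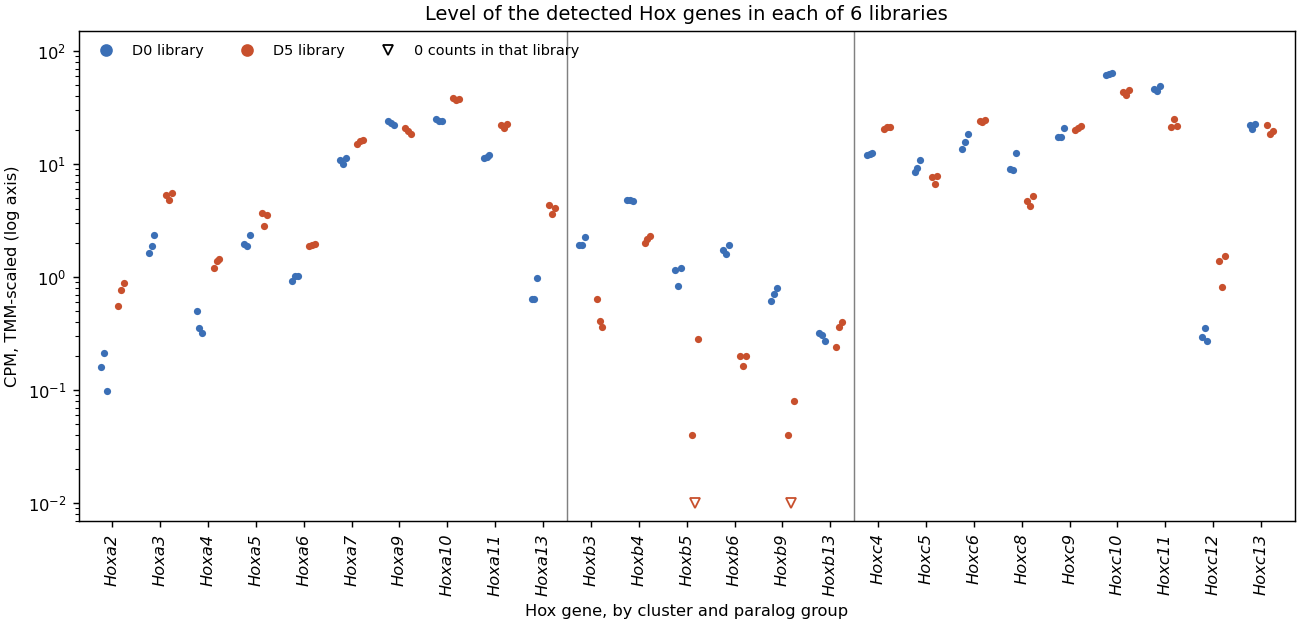
CPM of 25 detected *Hox* genes in every library on a log axis, with D0 libraries in blue, D5 libraries in red and an open triangle where a library had 0 counts. All D5 points lie above the D0 points in 9 of the 10 HoxA genes shown (with ERCC scaling *Hoxa7* turns) and below them in 5 of 6 HoxB genes, and in HoxC both patterns occur.

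In HoxB 5 of 6 genes tested were lower at D5 and none was higher. For *Hoxb5*, *Hoxb6* and *Hoxb9* a higher call was not open, since they passed the filter through their D0 libraries alone. All 5 lower genes also passed with ERCC scaling, which used the same filtered genes and is no separate support. *Hoxb4*, the highest HoxB gene and one that expands blood stem cells, had 182, 201 and 191 counts at D0 and 50, 54 and 58 at D5. It fell by 1.14 on the log2 scale (SE 0.13, edgeR adjusted p = 4.0e-09) to 45.3% of the D0 mean. *Hoxb3*, beside it in the cluster, had 72, 81 and 91 counts at D0 and 16, 10 and 9 at D5, and fell by 2.11 (SE 0.24, edgeR adjusted p = 2.8e-09). *Hoxb3os*, on the other strand, overlaps 52.9% of its exonic bases and had at most 3 counts.

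*Hoxb5*, *Hoxb6* and *Hoxb9* fell to a few counts, and these 3 passed the filter on low counts through their D0 libraries alone. *Hoxb6*, of the thoracic region, had 65, 67 and 77 counts at D0 and 5, 4 and 5 at D5, and fell by 3.19 on the log2 scale (SE 0.30, edgeR adjusted p = 3.5e-11). *Hoxb5*, its neighbour, had 43, 35 and 49 counts at D0 and 1, 0 and 7 at D5, so it was no longer detected. Its log2 fold change was -3.26 (SE 0.46, edgeR adjusted p = 1.7e-07), and -5.48 without D5 replicate 3, the library with 7 counts. *Hoxb9*, which patterns the ribs, had 23, 30 and 32 counts at D0 and 1, 0 and 2 at D5. With 85 counts against 3 in all, its scaled level was 17.7-fold lower at D5, with a 95% exact interval for counting error from 5.84 to 87.3, and edgeR's adjusted p was 4.9e-08.

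The remaining HoxB genes were at the edge of detection. *Hoxb13*, at the far posterior end and known from the prostate, had 12, 13 and 11 counts at D0 and 6, 9 and 10 at D5, and its log2 fold change of 0.15 was not past the threshold (SE 0.37, edgeR adjusted p = 0.70). *Hoxb2* had 0, 2 and 5 counts at D0 and 1, 0 and 0 at D5. *Hoxb7* and *Hoxb8* did not exceed 2 counts in any library, and *Hoxb1*, a hindbrain gene, was at 0 in all 6. These 4 were not detected in either group and were not tested.

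HoxC was split, with 4 genes higher, 4 lower and 1 not past the threshold; with ERCC scaling 2 were lower, none was higher and *Hoxc9* turned to -0.41. The 2 genes with the most counts fell. *Hoxc10* had 2282, 2642 and 2573 counts at D0 and 1093, 1007 and 1117 at D5 (log2 fold change -0.54 ± 0.043 SE, edgeR adjusted p = 1.3e-12), and kept 68.9% of the D0 mean. *Hoxc11*, a hindlimb gene beside it, had 1727, 1880 and 1999 counts at D0 and 539, 614 and 545 at D5 (log2 fold change -1.04 ± 0.055 SE, edgeR adjusted p = 4.5e-17), and kept 48.6%. *Hoxc8*, which acts in brachial motor neurons and the ribs, had 342, 371 and 506 counts at D0 and 119, 105 and 131 at D5 (log2 fold change -1.10 ± 0.12 SE, edgeR adjusted p = 1.5e-09). *Hoxc5*, of the cervical to thoracic region, had 320, 390 and 438 counts at D0 and 193, 164 and 194 at D5 (log2 fold change -0.38 ± 0.095 SE, edgeR adjusted p = 6.5e-04). In all 4 the D5 libraries lay below the D0 libraries. *Hoxc5* and *Hoxc10* share exonic bases on the same strand, 5.37% of the former and 8.70% of the latter.

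*Hoxc4* and *Hoxc6*, on either side of *Hoxc5*, moved the other way. *Hoxc4*, the most anterior gene of the cluster, had 448, 516 and 508 counts at D0 and 516, 530 and 528 at D5 (log2 fold change 0.78 ± 0.060 SE, edgeR adjusted p = 5.0e-13). *Hoxc6*, a thoracic and forelimb-level gene, had 506, 654 and 740 counts at D0 and 604, 587 and 613 at D5 (log2 fold change 0.61 ± 0.073 SE, edgeR adjusted p = 7.5e-09). Both were without overlap between the groups. *Hoxc12*, near the posterior end, had 11, 15 and 11 counts at D0 and 35, 20 and 38 at D5 (log2 fold change 2.00 ± 0.29 SE, edgeR adjusted p = 3.4e-07), and it too passed the filter only because of its D5 libraries.

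The calls of *Hoxc9* and *Hoxc13* changed with single libraries and with the tool, scaling or filter. *Hoxc9*, which sets thoracic motor neuron identity, had 648, 728 and 836 counts at D0 and 501, 516 and 541 at D5. Its log2 fold change was 0.18 (SE 0.066, edgeR adjusted p = 0.016), and the groups overlapped. In the same test its adjusted p was 0.13 without D0 replicate 1, 0.12 without D0 replicate 2 and 0.075 without D5 replicate 3. It was 0.080 with DESeq2, and with edgeR 0.20 with scaling to total counts alone and 0.082 without a filter. *Hoxc13*, a gene of hair and nail, had 824, 867 and 920 counts at D0 and 556, 458 and 491 at D5, and its log2 fold change of -0.11 was not past the threshold (edgeR adjusted p = 0.090). The adjusted p was 0.029 without D0 replicate 2 and 0.011 without D5 replicate 1, with log2 fold changes of -0.16 and -0.18. With edgeR it was 0.0042 with scaling to total counts alone and 0.012 without a filter, where the log2 fold changes were -0.20 and -0.17.

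Read by paralog group, members of the same group moved apart. In group 4 *Hoxa4* and *Hoxc4* were higher and *Hoxb4* lower, and in group 6 *Hoxa6* and *Hoxc6* were higher and *Hoxb6* lower. Group 5 had *Hoxa5* higher and *Hoxb5* and *Hoxc5* lower. In groups 10 and 11 the HoxA member was higher and the HoxC member lower. Under ERCC scaling the higher members of these groups were not past the threshold, with log2 fold changes from 0.02 to 1.16. Among the lower members *Hoxc5* and *Hoxc10* were not past it either (edgeR adjusted p = 0.13 and 0.080), whereas *Hoxb4*, *Hoxb5*, *Hoxb6* and *Hoxc11* were. *Hoxa10* and *Hoxc10* together gave 139 ± 4.30 TPM at D0 and 106 ± 5.42 TPM at D5 (SD, n = 3 each), and group 13, with *Hoxa13*, *Hoxb13* and *Hoxc13*, gave 32.2 ± 2.01 and 31.0 ± 3.26 TPM.

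Other genes within the clusters were counted too. Of 46 such annotated rows, 22 were at 0 in all libraries, among them all 10 within HoxD. Another 9 were tested, with 6 higher (1 with ERCC scaling) and 2 lower at D5. Here and for the flanking genes below, the shares over all genes tested were 42.2% higher and 40.8% lower. *Hotair*, a long noncoding RNA of the HoxC cluster between *Hoxc11* and *Hoxc12* that is known for its link to Polycomb, had 231, 264 and 290 counts at D0 and 105, 92 and 96 at D5 (log2 fold change -0.74, edgeR adjusted p = 3.9e-07). In HoxA 5 of 6 tested rows were higher, such as *Hoxa11os*, antisense to *Hoxa11*, with 0.77, and *Hoxaas2* with 1.90. Of the 24 protein-coding genes flanking the 4 clusters, the 3 nearest on each side, 20 were tested, and 11 were higher and 6 lower (1 and 3 with ERCC scaling), with a median log2 fold change of 0.30.

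The TALE cofactors were detected in full, all 9 in both groups, and 4 were lower and 1 higher at D5. Over all genes tested 40.8% were lower and 42.2% higher. *Meis2*, a proximal limb gene, had 5285, 5813 and 5917 counts at D0 and 977, 938 and 1019 at D5, and fell from 142 ± 4.42 to 39.3 ± 1.49 CPM (log2 fold change -1.85, edgeR adjusted p = 3.7e-27). *Pknox2* fell by 2.04 on the log2 scale, *Meis1* by 0.57 and *Pknox1* by 0.35. *Pbx2* rose by 0.62, from 29.7 ± 1.79 to 45.7 ± 1.64 CPM (SD, n = 3 each). *Pbx3*, *Pbx4* and *Meis3* were not past the threshold. With ERCC scaling *Pbx2* was no longer past the threshold, and 2 of the 9 were lower.

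**Figure D5:**
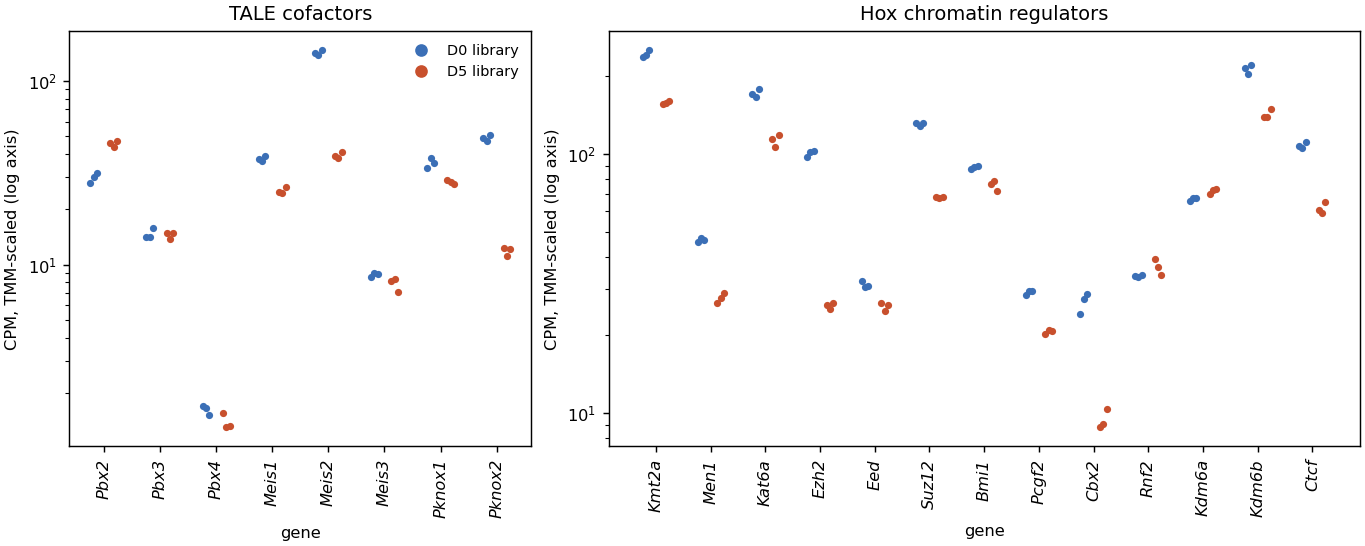
CPM of 8 TALE cofactors (left) and of the 13 chromatin regulators (right) in each library, on log axes, with D0 in blue and D5 in red. *Meis2* and *Pknox2* on the left and *Ezh2* and *Cbx2* on the right show the widest gaps, and *Pbx2* lies higher at D5, at 45.7 against 29.7 CPM.

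Of 13 chromatin regulators known to act on *Hox* clusters, 11 were lower and 2 higher at D5, against 40.8% and 42.2% of all genes tested. With ERCC scaling 5 were lower and none higher. *Ezh2*, the methyltransferase of Polycomb complex PRC2, fell from 101 ± 2.82 to 26.0 ± 0.669 CPM (log2 fold change -1.95, edgeR adjusted p = 5.4e-27). *Suz12*, its partner, fell by 0.94, *Cbx2*, a reader subunit of PRC1, by 1.51, and *Kmt2a*, a Trithorax group methyltransferase that keeps *Hox* genes active, by 0.62. *Rnf2* and *Kdm6a* were higher by 0.12 and 0.11, but 0 regulators were higher without D0 replicate 1 or with total-count scaling, and 1 without D0 replicate 2, D0 replicate 3, D5 replicate 1 or D5 replicate 2.

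Genes of retinoic acid signalling, which activates anterior *Hox* genes in the embryo, were mostly higher. Of 16 listed, 13 were tested, and 11 were higher and 2 lower at D5, against 42.2% and 40.8% of all genes tested. The receptor gene *Rarb*, itself a target of retinoic acid, had 2, 8 and 7 counts at D0 and 34, 59 and 35 at D5. *Crabp2*, which carries retinoic acid in the cell, rose from 2.07 ± 0.0301 to 61.9 ± 2.15 CPM (SD, n = 3 each). *Cyp26b1*, an enzyme that breaks down retinoic acid, had 9, 10 and 10 counts at D0 and 90, 88 and 96 at D5. *Stra6*, a receptor for retinol uptake, fell by 3.60 on the log2 scale, and *Aldh1a3*, which makes retinoic acid, by 1.32. With ERCC scaling 5 of the 16 were higher.

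Of the 11 listed genes that mark limb position, 5 were detected at D0 and 6 at D5. *Pitx1*, of the hindlimb, *Tbx5*, of the forelimb, and *Lmx1b* and *Hand2*, of the dorsal and posterior limb bud, were at 0 in all 6 libraries. *Tbx4*, of the hindlimb, had 8, 5 and 5 counts at D0 and 21, 17 and 18 at D5. *Prrx1*, of limb mesenchyme, had 261 ± 1.99 and 190 ± 1.55 CPM (SD, n = 3 each) and fell by 0.46 on the log2 scale, and *Tbx15*, of limb and trunk mesenchyme and muscle, rose from 19.8 ± 0.744 to 264 ± 4.13 CPM, a log2 fold change of 3.74. Of the 11 genes listed, 3 were higher and 2 lower (0 lower with ERCC scaling) among the 6 tested. The shares over all genes tested were 42.2% and 40.8%. Of the 8 *Cdx*, *Evx* and ParaHox genes, relatives or regulators of the *Hox* clusters, 7 were at 0 throughout and *Cdx1* had at most 6 counts.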

How the data were processed

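RNA-seq was performed on 3 C2C12 cultures at D0 and 3 at D5, grouped by the sample titles. The authors deposited whole-number read counts per gene, without normalization, made with featureCounts on GRCm38 (mm10). The paper names HISAT2 and FastQC, the labels Tophat2 and NGS-QC-Toolkit. The annotation release and strand setting were not given in the sources used here. The 92 ERCC rows and an unnamed row that equals the sum of its file were left out. Positions and exonic lengths came from GENCODE M21 (99.8% of rows matched), promoter windows from RefSeq. TMM factors, CPM and quasi-likelihood tests came from edgeR 4.0.16 (R 4.3.3), run on genes kept by filterByExpr, with Benjamini-Hochberg adjustment over 16290 genes. The standard error is the absolute log2 fold change over the square root of F. The script was tested on simulated data.

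Every *Hox* gene was classed by detection. Counts in every library are given for those detected in a group, and full statistics for called genes that averaged 20 counts or more in 1 group. Genes from the lists of cofactors, regulators, retinoic acid, limb, markers, cluster rows and flanks could be named. Single values of 3 genes are not reported here. The members and lists were chosen with earlier results of these data known. Alternatives were DESeq2 1.42.0, upper-quartile, total-count and ERCC scaling, both other filters, leaving out each library, a block for the replicate number and, chosen after the data were seen, exonic length not shared between genes. Chi-square divided by degrees of freedom was 2.28 to 3.71 between replicates, so none was taken for a copy. Nothing used here says that the cultures came from separate experiments, so p-values measure the spread between these samples, which may be technical.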

Additional observations from a re-analysis of the deposited data

How the results depend on the processing

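Of 316 alternative values for 25 of the tested *Hox* genes, 291 kept their direction and side of the threshold. With ERCC scaling *Hoxa7* turned to -0.012, *Hoxb13* to -0.53 and *Hoxc9* to -0.41, and the ERCC share varied from 0.720% to 2.09% between D5 libraries. The same scaling gave 2 higher *Hox* genes, 0 higher and 2 lower TALE cofactors, 0 higher and 5 lower chromatin regulators, 5 higher retinoic acid genes, 0 lower limb genes, 1 higher row within the clusters, and 1 higher and 3 lower flanking genes, and the cause was not tested. Requiring 10 counts in every library left fewer genes to test, with 6 lower *Hox* genes, 7 higher retinoic acid genes, 1 higher limb gene and 1 lower row within the clusters, and 6 *Hox* genes untested. *Hoxb13* was also untested without any one D0 library. Higher chromatin regulators numbered 1 with DESeq2, 1 with upper-quartile scaling, 0 with total counts, 0 without a filter and 0 to 2 without single libraries. Of the *Cdx*, *Evx* and ParaHox genes 1 was higher with DESeq2 and 1 without a filter. Without single libraries 12 to 13 *Hox* genes were higher and 10 to 11 lower. *Hoxb9* had a fitted log2 fold change of -4.90 without D5 replicate 3. Over exonic length not shared with another gene, HoxC made up 74.1% of the summed level at D0 and 61.8% at D5. With the threshold for detection at 10 counts, or at over 3 counts in any library, 25 to 27 *Hox* genes were detected at D0 and 21 to 25 at D5. Depth limits the values of the HoxB genes at D5. A count of 0 for a *Hoxd* gene allows up to 3 counts in a single library, and 0 in all 6 libraries together sets a lower limit.

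The same-numbered samples did not deviate together in the way that pairing asks for: their correlations were 0.033, 0.064 and 0.028, although each sample correlated best with its own number. With the replicate number as a block 13 *Hox* genes were higher and 10 lower, as without it, and no call of a *Hox* gene changed.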
